A study of Homo sapiens with 14 samples.

Results

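The transcripts described here are 10 genes that carry the names of long known targets of 2 transcription programmes that read the state of the actin cytoskeleton: CTGF, CYR61, ANKRD1, TAGLN, ACTA2, CNN1, CNN2, MYL9, TPM1 and VCL. They were taken by symbol from the 23040 genes listed in the files, where CTGF and CYR61 are the older symbols of CCN2 and CCN1. RNA sequencing of total RNA had been run on Panc-1 and AsPC-1, established human pancreatic cancer cell lines. Each line had 1 library of untreated cells (mock, with no time in the labels) and 6 libraries of serum-starved cells exposed for 1, 5 or 24 h to epidermal growth factor (EGF) at 50 ng/ml or to the secreted ribonuclease angiogenin (ANG, named hRNase5 as well) at 1 µg/ml. The 14 libraries made 7 conditions in each line with 1 library a condition, and the labels do not say whether the mock cells were serum-starved. A difference between the lines holds for these 2 cultures and for no wider group. The doses of the ligands differ, so EGF and ANG were compared as treatments at a single dose each.

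Serum response factor (SRF) switches on cytoskeletal genes when its cofactors, the myocardin-related transcription factors (MRTFs), are released from monomeric actin as filaments form. Yes-associated protein (YAP) and its relative TAZ enter the nucleus when cells are spread and under tension, bind TEAD factors and switch on genes such as CTGF and CYR61. Many genes answer to both programmes, and in carcinoma cells their level is often read as a gauge of adhesion, spreading and contractility. CTGF and CYR61 encode secreted matricellular proteins of the CCN family, and ANKRD1 encodes a nuclear ankyrin repeat protein first studied in heart muscle. TAGLN (transgelin), CNN1 and CNN2 (calponins) and TPM1 (a tropomyosin) encode proteins that bind along actin filaments. ACTA2 encodes smooth muscle actin, MYL9 a regulatory light chain of myosin II, and VCL encodes vinculin, which links integrin and cadherin adhesions to actin.

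Promoter sequence is shown for the members whose window held a binding motif of either programme, since that is the part of these genes on which the factors are known to act. RefSeq (GRCh38.p14) gave a start site for 7 of the 10 genes and 8 promoters in all. CYR61, TAGLN and MYL9 had no entry. In the 250 bases before each start, both strands were searched for CATTCC (the TEAD motif, GGAATG on the other strand), for the CArG box of SRF and for TGANTCA. The last is a loose form of the AP-1 motif that takes any base at its centre. The CArG box was taken in its strict form, 10 bases with only A or T between CC and GG. A box with another base there was not counted. Capitals mark the matches, no match overlapped another, and up to 30 bases are printed on either side.
CTGF, minus strand (chr6:131951432-131951571): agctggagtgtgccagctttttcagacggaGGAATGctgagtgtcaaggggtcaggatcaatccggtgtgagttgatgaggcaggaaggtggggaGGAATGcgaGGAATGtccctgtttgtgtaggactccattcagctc
ANKRD1, minus strand (chr10:90921180-90921337): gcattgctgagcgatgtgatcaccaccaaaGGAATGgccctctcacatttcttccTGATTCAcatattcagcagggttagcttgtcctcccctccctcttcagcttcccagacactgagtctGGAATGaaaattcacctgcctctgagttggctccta
ACTA2, the second annotated start, minus strand (chr10:88952921-88952986): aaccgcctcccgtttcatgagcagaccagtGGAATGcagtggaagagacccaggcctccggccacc
VCL, plus strand (chr10:73997915-73997980): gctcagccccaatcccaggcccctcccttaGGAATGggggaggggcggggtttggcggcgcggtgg
CNN2, plus strand (chr19:1026489-1026558): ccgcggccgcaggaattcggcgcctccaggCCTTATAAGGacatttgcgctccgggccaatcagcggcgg
CTGF held the TEAD motif at 169, 104 and 95 bases before its start, and ANKRD1 held it at 220 and 128 bases. ANKRD1 also held TGATTCA, a match to the loose AP-1 form with T at its centre, at 195 bases. VCL held a TEAD motif at 171 bases, and so did the second start of ACTA2 at 183. CNN2 held the CArG box at 89 bases before its start. The first ACTA2 start, CNN1 and TPM1 held none of the 3 motifs in this window. Among all 35116 RefSeq promoters of the same length, 11.9% held the TEAD motif, 1.16% the CArG box and 6.57% the loose AP-1 form. A match describes the letters and is no measured binding site.

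Levels are given as RPKM, reads per kilobase of transcript and M mapped reads, so they can be compared between genes. Differences are given as log2(RPKM + 1), which understates the change of genes near or under 1 RPKM. The estimated depth ran from 11.2 to 16.9 M reads for Panc-1 libraries and from 18.9 to 24.0 M for AsPC-1 libraries. Genes spanning under 400 bp took 5.06 to 17.08% of the reads. Both lines held the RNA of epithelial cells: 5 of 5 epithelial markers had a median of at least 1 RPKM in each line, with KRT19 at a median of 369.65 RPKM in Panc-1 and KRT18 at 743 RPKM in AsPC-1. Of 12 fibroblast and smooth muscle markers, THY1 in Panc-1 (2.47 RPKM) and LUM in AsPC-1 (30.7 RPKM) had a median of at least 1 RPKM. DCN and FAP were listed at 0 throughout Panc-1, and FAP, PDGFRA and THY1 throughout AsPC-1. For 7 of the 10 genes, all among the 9 tested, the AsPC-1 libraries of 1 h and 5 h lay apart from mock and 24 h. Of all tested genes 19.4% showed this split upwards and 31.5% downwards. Among the treated libraries it follows the time label, while no label places mock with 24 h.

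Of the 10 genes, 9 reached 1 RPKM in at least 2 libraries and entered the tests over 13427 genes. CNN1 reached 1 RPKM in no library and was not tested. ANKRD1 passed through 2 early Panc-1 libraries (EGF 1 h and ANG 5 h) and ACTA2 through 3 Panc-1 libraries (mock and both of 24 h). Their presence among the tested genes thus already reflects the line and time where they were high. They are left out of the counts between lines, over time in each line and in the interaction, and their values there are descriptions. Those counts cover the other 7, which reached 1 RPKM in at least 2 libraries of each line. Counts given over 9 or 10 genes include ANKRD1 and ACTA2, and no result is read from their part. MYL9 entered the tests through all 7 Panc-1 libraries. In AsPC-1 it reached 1 RPKM only in its 4 libraries of 1 h and 5 h, where it was high. Its place among the 7 reflects those times, so its part in the counts over time in AsPC-1 is a description. TAGLN and MYL9 were at 1 RPKM or more in 11 libraries, and CTGF, CYR61, CNN2, TPM1 and VCL in 14. CNN2 has 11 annotated pseudogenes whose reads could have been counted with it, so its level is uncertain. The span of ACTA2 overlaps that of FAS by 859 bp on the opposite strand, and since the use of strand in counting is not given, its low values are uncertain too.

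**Figure D1:**
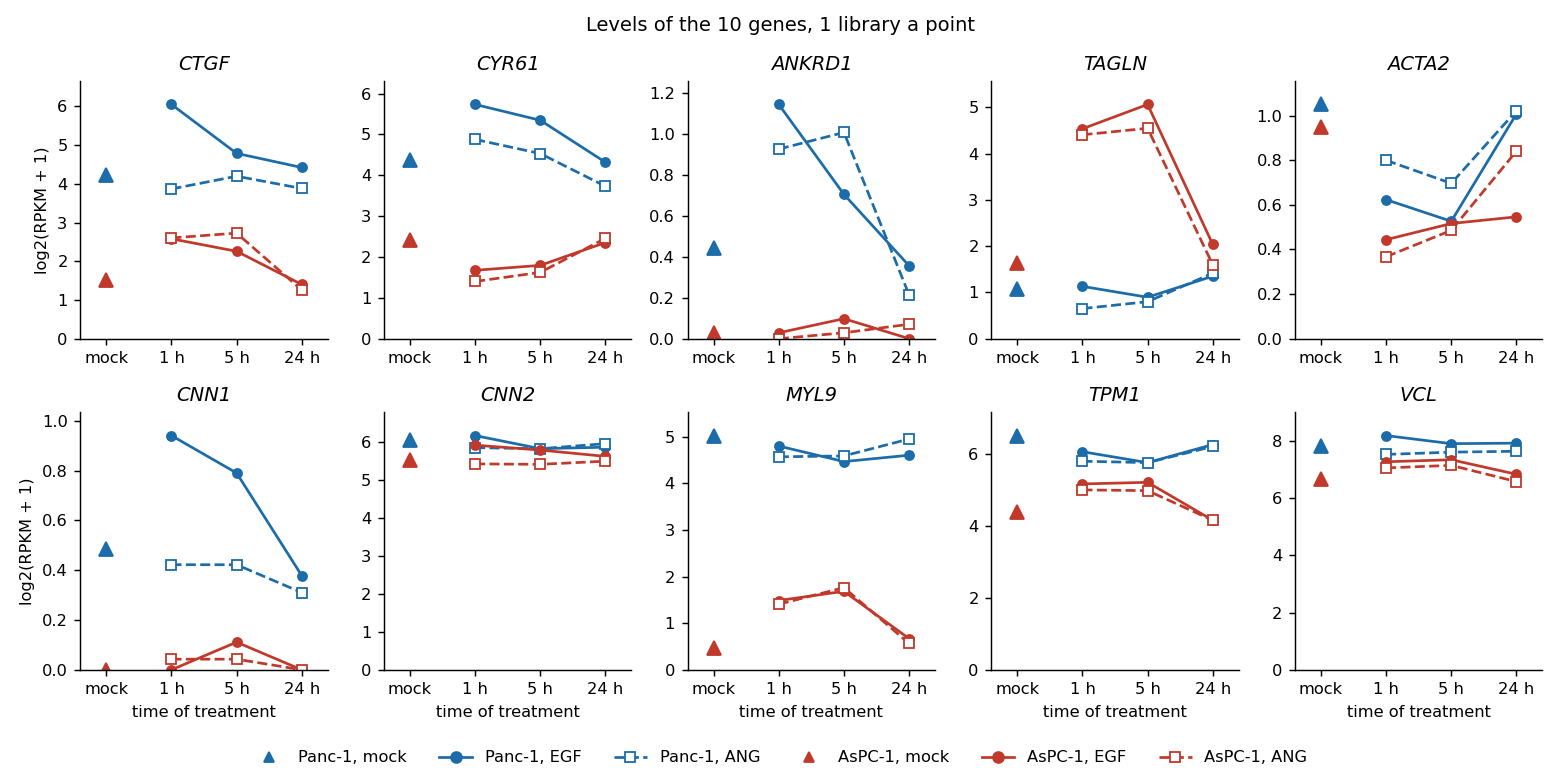
Level of each of the 10 genes as log2(RPKM + 1) (vertical axes, different scales) in mock and after 1, 5 and 24 h of EGF (filled circles) or ANG (open squares), in Panc-1 (blue) and AsPC-1 (red), 1 library a point. TAGLN is the gene with higher points in AsPC-1 than in Panc-1 in 7 of 7 conditions, and CYR61 and TPM1 run in opposite directions in the 2 lines.

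The lines were compared first, within the 7 conditions that they share. AsPC-1 held less of most members: limma with Benjamini-Hochberg adjustment over all genes called 6 of these 7 members lower in AsPC-1 and 1 higher, each with the same direction in 7 of 7 conditions. The exception was TAGLN. The background is high, since 68.8% of all tested genes were called between these lines, 39.6% lower and 29.3% higher in AsPC-1. The median difference of the 7 was -1.33 against -0.13 over all genes.

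The widest gap was that of MYL9, the myosin light chain. It lay between 21.1 and 31.5 RPKM in Panc-1 (median 23.3) and between 0.39 and 2.39 RPKM in AsPC-1 (median 1.65), with no overlap, a log2 difference of -3.56 ± 0.24 (SE; limma adjusted p = 2.26e-06). Its close relative MYL12A, another regulatory light chain, was abundant in both lines at 253 to 329.7 and 205 to 318 RPKM (-0.13 ± 0.11, limma adjusted p = 0.328). The secreted CCN proteins came next. CTGF had a median of 17.8 RPKM in Panc-1 (13.6 to 65.3) and 3.78 in AsPC-1 (1.39 to 5.62), and CYR61 had medians of 22.2 (12.3 to 52.3) and 2.47 RPKM (1.64 to 4.49). The ranges of MYL9, CTGF and CYR61 lay apart between the lines, but how many of all genes do so was not counted. Their differences were -2.44 ± 0.26 and -2.74 ± 0.34 (limma adjusted p = 4.5e-05 and 0.000102). ANKRD1 lay between 0.16 and 1.21 RPKM in Panc-1 and at 0.07 RPKM at most in AsPC-1, where it was listed at 0 in 2 libraries. The AsPC-1 values correspond to an estimated 0 to 3 reads a library, and no test is read from the gap.

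Among the genes of the contractile apparatus, TPM1 had a median of 66.0 RPKM in Panc-1 (53.3 to 90.5) and 30.7 in AsPC-1 (16.9 to 36.2). Its difference was -1.33 ± 0.24 (limma adjusted p = 0.00105). VCL was the most abundant member in every library, with a median of 226 RPKM in Panc-1 (183 to 290.02) and 132 in AsPC-1 (94.4 to 161), a difference of -0.82 ± 0.11 (limma adjusted p = 0.000234). CNN2 differed least among the abundant members, at 55.8 to 71.3 RPKM against 41.7 to 59.7, ranges that overlap. Its difference was -0.34 ± 0.08 (limma adjusted p = 0.00363), which missed the threshold at 0.0508 when each library was centred on its median, a scaling that moved the median of all genes from -0.13 to -0.03. ACTA2 stayed near or under 1 RPKM everywhere, between 0.44 and 1.07 in Panc-1 and between 0.29 and 0.93 in AsPC-1. Its difference was -0.23 ± 0.08, or -0.12 with centred libraries, and no test is read from it. CNN1, the calponin of smooth muscle, lay between 0.24 and 0.92 RPKM in Panc-1. In AsPC-1 it was listed at 0 in 4 libraries and at 0.08 RPKM at most, an estimated 0 to 3 reads.

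TAGLN ran the other way. It lay between 0.57 and 1.67 RPKM in Panc-1 (median 1.11) and between 2.03 and 32.5 RPKM in AsPC-1 (median 20.2), with a difference of 2.36 ± 0.57 (limma adjusted p = 0.00583). The gap depended on the condition: mock AsPC-1 held 1.92 times the TAGLN level of mock Panc-1, and the 1 h ANG library held 35.5 times that of its Panc-1 partner. Its paralogue TAGLN2 was abundant in both lines, at 149 to 208 and 174 to 267 RPKM.

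Next, 24 h was compared with 1 h within the courses of each line, which uses no mock library. In AsPC-1 most members were lower at 24 h than at 1 h: limma with Benjamini-Hochberg adjustment called TAGLN, CTGF, TPM1, MYL9 and VCL lower and CYR61 higher, 6 of the 7. In Panc-1 it called 1 of the 7, CYR61, lower at 24 h, and with centred or rescaled libraries 3, CYR61 lower and TAGLN and TPM1 higher. The background was 40.7% of all genes called in AsPC-1 (24.8% higher, 15.9% lower) and 26.6% in Panc-1 (11.3% higher, 15.2% lower). The medians of the 7 were -0.83 in AsPC-1 and -0.08 in Panc-1, against 0.04 and -0.02 over all genes. MYL9 is among the 7 only because its 1 h and 5 h libraries of AsPC-1 reached 1 RPKM. The count and the median in AsPC-1 partly reflect that choice. The split of calls over all genes depends on the scaling. In Panc-1 it was 1520 higher and 2046 lower, against 1979 and 1930 with centred libraries and 2463 and 1756 when rescaled to genes of at least 400 bp. In AsPC-1 it was 3334 and 2131, against 2725 and 3156 and 3529 and 2547.

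TAGLN changed most. In AsPC-1 it stood at 2.13 RPKM in mock, at 20.2, 22.4 and 2.03 RPKM after 1, 5 and 24 h of ANG, and at 22.3, 32.5 and 3.11 RPKM after 1, 5 and 24 h of EGF. The 4 libraries of 1 h and 5 h lay far above mock whichever ligand was given, and both 24 h libraries lay near mock. From 1 h to 24 h the level fell 9.97-fold with ANG and 7.16-fold with EGF, and the log2 change was -2.65 ± 0.16 (limma adjusted p = 0.000104). In Panc-1 the values were 1.11 RPKM in mock, 0.57, 0.74 and 1.67 with ANG and 1.19, 0.86 and 1.55 with EGF. The 24 h libraries were the highest there, with a change of 0.49 ± 0.16 (limma adjusted p = 0.0577). It passed the threshold with centred libraries (0.54, adjusted p = 0.0428) and with rescaled ones (0.58, adjusted p = 0.0246).

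TPM1 and MYL9 had the same grouping of libraries as TAGLN in AsPC-1. TPM1 read 19.99 RPKM in mock, then 31.1, 30.7 and 16.9 with ANG and 35.02, 36.2 and 16.9 with EGF, so that all 4 libraries of 1 h and 5 h lay above the other 3. Its change was -0.93 ± 0.10 (limma adjusted p = 0.000524). MYL9 read 0.39 RPKM in mock, 1.65, 2.39 and 0.48 with ANG and 1.80, 2.21 and 0.59 with EGF, with those 4 again above the other 3 and a change of -0.83 ± 0.14 (limma adjusted p = 0.00361). In Panc-1 TPM1 had the opposite order. It was highest in mock at 90.5 RPKM, read 54.8, 53.3 and 73.2 with ANG and 66.0, 53.3 and 75.95 with EGF, and changed by 0.30 ± 0.10 from 1 h to 24 h (limma adjusted p = 0.0565). That change passed with centred libraries (0.35, adjusted p = 0.0196) and with rescaled ones (0.41, adjusted p = 0.00862). MYL9 in Panc-1 read 31.5 RPKM in mock, 22.7, 23.01 and 29.9 with ANG and 26.8, 21.1 and 23.3 with EGF, a change of 0.09 ± 0.14.

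CYR61 moved in opposite directions in the lines. In Panc-1 it read 19.6 RPKM in mock, 28.4, 22.2 and 12.3 with ANG and 52.3, 39.7 and 18.97 with EGF, so that every 1 h and 5 h library lay above mock and 24 h. Its change was -1.28 ± 0.12 (limma adjusted p = 0.00183). In AsPC-1 it read 4.38 RPKM in mock, 1.64, 2.08 and 4.49 with ANG and 2.19, 2.47 and 4.11 with EGF, so that every 1 h and 5 h library lay below mock and 24 h. Its change there was 0.87 ± 0.12 (limma adjusted p = 0.00159). CTGF, its relative, was lower at 24 h in AsPC-1. It read 1.84 RPKM in mock, 5.07, 5.62 and 1.39 with ANG and 4.98, 3.78 and 1.64 with EGF, with higher levels at 1 h and 5 h than in the other 3 libraries. Its change of -1.26 ± 0.37 passed (limma adjusted p = 0.0302), but not without any of its 1 h and 24 h libraries (adjusted p = 0.116 without ANG 1 h, 0.159 without ANG 24 h, 0.133 without EGF 1 h and 0.0625 without EGF 24 h). In Panc-1 it read 17.8 RPKM in mock, 13.6, 17.3 and 13.7 with ANG and 65.3, 26.6 and 20.4 with EGF. The EGF library of 24 h stood 3.2-fold below that of 1 h, the ANG libraries of these times were at a ratio of 1.01, and the change over both was -0.81 ± 0.37 (limma adjusted p = 0.146).

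ANKRD1 in Panc-1 read 0.36 RPKM in mock, 0.90, 1.01 and 0.16 with ANG and 1.21, 0.63 and 0.28 with EGF, levels of an estimated 5 to 36 reads. The 1 h and 5 h libraries lay above the other 3, and the change was -0.75 ± 0.14, from which no test is read, since the early libraries brought the gene into the tests. VCL in AsPC-1 read 101 RPKM in mock, 132, 141 and 94.4 with ANG and 153, 161 and 113 with EGF. Its change of -0.46 ± 0.12 (limma adjusted p = 0.0169) missed the threshold without the ANG 1 h, ANG 24 h or EGF 1 h library (adjusted p = 0.0995, 0.0793 and 0.0787). VCL in Panc-1 changed by -0.08 ± 0.12, and CNN2 changed by -0.10 ± 0.13 in Panc-1 and -0.11 ± 0.13 in AsPC-1, none of them past the test. ACTA2 was lower in the 1 h and 5 h libraries than in mock and 24 h in both lines, with 0.44 to 0.74 against 1.01 to 1.07 RPKM for Panc-1 and 0.29 to 0.43 against 0.46 to 0.93 RPKM for AsPC-1. Its changes were 0.30 ± 0.12 and 0.29 ± 0.12.

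**Figure D2:**
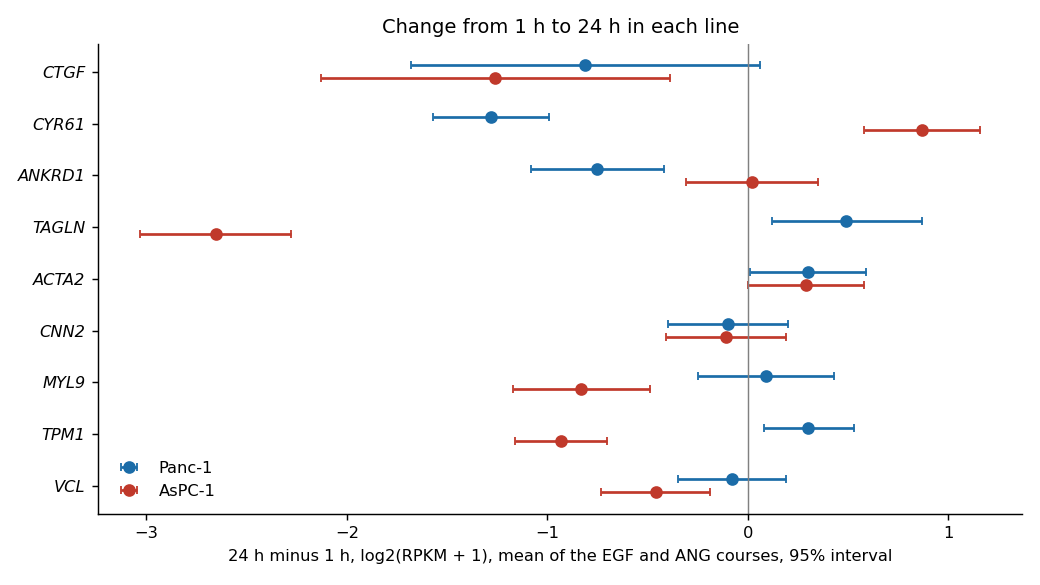
Change from 1 h to 24 h on log2(RPKM + 1) (horizontal axis) for the 9 tested genes, mean of the EGF and ANG courses with its 95% interval, in Panc-1 (blue) and AsPC-1 (red). The intervals of the 2 lines lie apart for CYR61, ANKRD1, TAGLN, MYL9 and TPM1 and overlap for CTGF, ACTA2, CNN2 and VCL, where ANKRD1 and ACTA2 entered only through Panc-1 libraries.

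Whether the time course depended on the line was tested as an interaction, 24 h against 1 h in AsPC-1 minus that in Panc-1. Limma with Benjamini-Hochberg adjustment called 4 of the 7 members, where 36.0% of all genes were called (22.2% higher, 13.9% lower). MYL9 is in this count through its 1 h and 5 h libraries of AsPC-1, where it was high. TAGLN (-3.15 ± 0.23, limma adjusted p = 0.000181), TPM1 (-1.23 ± 0.14, adjusted p = 0.00075) and MYL9 (-0.92 ± 0.20, adjusted p = 0.0119) changed more towards lower levels in AsPC-1. CYR61 (2.15 ± 0.17, adjusted p = 0.000247) did so in Panc-1. The MYL9 call was lost without the Panc-1 ANG 1 h or ANG 24 h library (adjusted p = 0.0559 and 0.0595). CTGF (-0.45 ± 0.53; 95% interval -1.68 to 0.78) and VCL (-0.38 ± 0.16; -0.76 to 0.00; limma adjusted p = 0.11) were not called. VCL passed with centred libraries (-0.55, adjusted p = 0.0405) and with rescaled ones (-0.51, adjusted p = 0.0327), which makes 5 of the 7. The ANKRD1 difference of 0.77 ± 0.20 sets the Panc-1 libraries that brought it into the tests against 0 to 3 reads in AsPC-1 and is not counted. Over all genes the split of calls was 2978 higher and 1860 lower, against 2375 and 3028 with centred libraries and 2775 and 2706 with rescaled ones.

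The grouping of libraries can be described without a test. The AsPC-1 libraries of 1 h and 5 h, of both ligands, lay entirely above mock and 24 h for CTGF, TAGLN, MYL9, TPM1 and VCL and entirely below for CYR61 and ACTA2. Thus 7 of the 10 genes separated, all of them among the 9 tested. In Panc-1 CYR61 lay above and TPM1 below, beside ANKRD1 above and ACTA2 below. ANKRD1 and ACTA2 entered the tests only through the Panc-1 libraries where they were high, so their place there was set by that choice. The grouping by time was common: beside the shares for AsPC-1 given above, 20.9% of all tested genes lay above and 25.4% below in Panc-1. The summed level of the 5 epithelial markers was 1892 to 2453 RPKM in the 1 h and 5 h libraries of AsPC-1 and 1880.47 to 2043 in the others, and 896 to 1015 against 1127 to 1375 in Panc-1. The sum hides CDH1, at 66.6 to 89.3 RPKM in the 1 h and 5 h libraries of AsPC-1 and 21.3 to 23.4 in the others. It was the 1 of the 5 called over time there, as lower at 24 h (-1.61 ± 0.25, limma adjusted p = 0.00216), where 15.9% of all genes were lower. The 12 fibroblast and smooth muscle markers summed to 26.8 to 31.1 against 33.2 to 46.8 RPKM in AsPC-1, nearly all of it LUM, and to 4.25 to 4.78 against 3.48 to 4.53 in Panc-1. Their part in the differences above was not tested, and in RNA from whole cultures fewer cells of a kind and less RNA per cell cannot be told apart. Averaged over the lines, where opposite courses cancel, 24 h against 1 h called 0 of 9 members by limma (2 at an unadjusted p under 0.05, ACTA2 among them, with 6.36% of all genes called). The 5 h libraries differed from those of 1 h in 0 of 9 members by limma (0 at an unadjusted p under 0.05, with 0.0% of all genes called).

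Other genes of the 2 programmes were then read in the same fits. Of 24 tested SRF and MRTF targets beyond the 10 members, 10 were lower and 3 higher at 24 h than at 1 h in AsPC-1 by limma, where 15.9% of all genes were lower and 24.8% higher. In Panc-1 2 were higher and 0 lower (7 at an unadjusted p under 0.05), where 11.3% of all genes were higher and 15.2% lower, and 5 were higher with rescaled libraries. The list's median was -0.17 in AsPC-1 and 0.15 in Panc-1, against 0.04 and -0.02 over all genes. In AsPC-1 the fallers were the actins ACTB and ACTG1, the focal adhesion protein ZYX, the actin crosslinkers FLNA, FLNC and ACTN1, TPM4, CNN3, WDR1 and CORO1C. ZYX (zyxin) read 6.83 RPKM in mock, 28.03, 30.4 and 7.04 with ANG and 35.4, 37.2 and 12.7 with EGF, a change of -1.63 ± 0.17 (limma adjusted p = 0.000498). ACTB (beta actin) read 617 RPKM in mock, 1995, 1966 and 652 with ANG and 2587, 2695 and 1269 with EGF, a change of -1.32 ± 0.20 (limma adjusted p = 0.00219). Both thus had the grouping that TAGLN and TPM1 showed. In Panc-1 ACTB stayed between 593 and 682 RPKM in all 7 libraries. The 3 risers in AsPC-1 were FHL2 (1.01 ± 0.12), a LIM domain cofactor, PDLIM5 (1.07 ± 0.18) and TPM2 (0.42 ± 0.12), of which 2 passed with centred libraries. In the interaction, 11 of the 24 changed more towards lower levels in AsPC-1 and 3 more towards higher, where 13.9% and 22.2% of all genes did.

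Of 20 tested YAP and TEAD targets beyond the members, 7 were lower and 0 higher at 24 h in AsPC-1 (limma), and 2 were higher and 1 lower in Panc-1, or 4 higher with rescaled libraries. Over all genes 15.9% were lower in AsPC-1, and 11.3% were higher and 15.2% lower in Panc-1. The list's medians were -0.02 and 0.01, close to those of all genes. The 7 in AsPC-1 were TGFB2 (-1.59 ± 0.16), FJX1 (-1.32 ± 0.09), F3, the tissue factor gene (-1.29 ± 0.11), IGFBP3 (-0.80 ± 0.11), ASAP1, AMOTL1 and JUB. F3 read 116 RPKM in mock, 296, 332 and 115 with ANG and 377, 501 and 161 with EGF in AsPC-1, with the 1 h and 5 h libraries above the other 3, as for CTGF. In Panc-1 it stayed between 3.48 and 5.48 RPKM. GADD45A was the target lower at 24 h in Panc-1 (-0.90 ± 0.23, limma adjusted p = 0.0276).

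**Figure D3:**
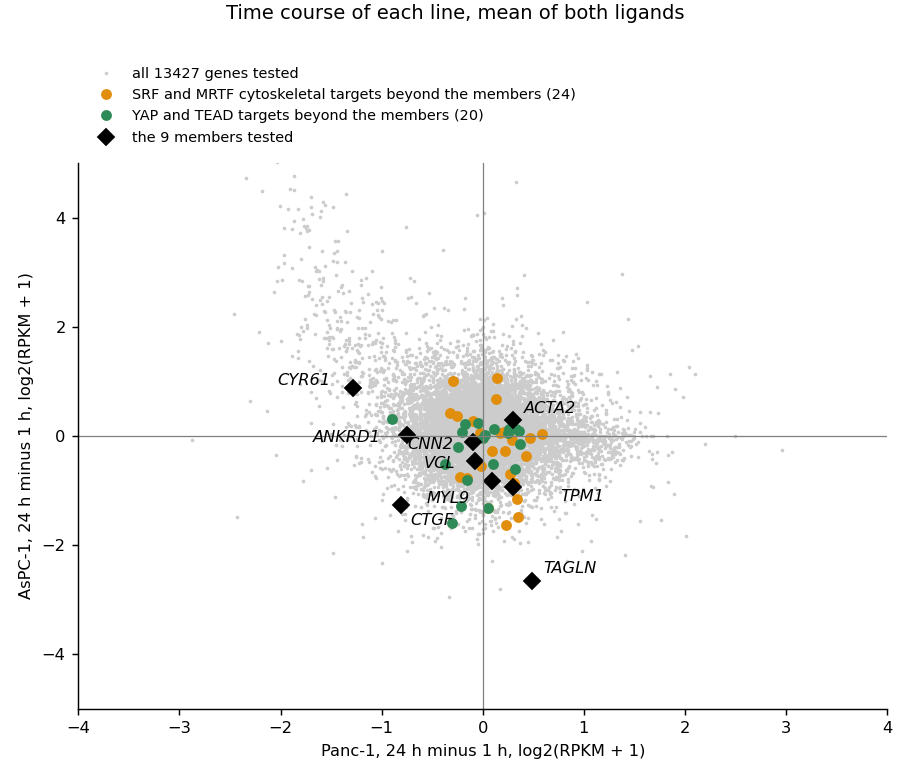
Change from 1 h to 24 h on log2(RPKM + 1), mean of both ligands, in Panc-1 (horizontal axis) and AsPC-1 (vertical axis) for the 13427 tested genes (grey, 1 of them outside the axes), SRF and MRTF targets (orange), YAP and TEAD targets (green) and the 9 tested members (black). TAGLN lies at the lower edge of the cloud, at 0.49 and -2.65, and CYR61 lies at -1.28 and 0.87.

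The transcripts of the factors themselves were read next. YAP1 ranged from 52.4 to 64.3 RPKM across Panc-1 and from 50.3 to 65.3 across AsPC-1, a difference of 0.07 ± 0.08 (limma adjusted p = 0.428), and TEAD1 differed by 0.06 ± 0.08 (adjusted p = 0.513). WWTR1, the gene of TAZ, ranged from 75.2 to 122 RPKM across Panc-1 and from 11.3 to 18.1 across AsPC-1, a difference of -2.65 ± 0.16 (limma adjusted p = 9.3e-07). TEAD2 was lower in AsPC-1 as well (-2.81 ± 0.24). SRF lay between 17.1 and 37.7 RPKM in Panc-1 and between 6.77 and 12.4 in AsPC-1, a difference of -1.41 ± 0.11 (limma adjusted p = 5.41e-06), and the MRTF genes MKL1 and MKL2 differed by -1.08 ± 0.09 and -0.52 ± 0.09. MYOCD, the muscle-restricted cofactor, was at 0.03 RPKM at most. From 1 h to 24 h none of the 3 tested genes SRF, MKL1 and MKL2 passed in either line (0 at an unadjusted p under 0.05 in each, limma), while 1 of the 3 passed as lower in AsPC-1 with centred libraries. Of 19 tested Hippo pathway genes and TEAD factors, 10 were lower and 4 higher in AsPC-1, against 39.6% and 29.3% of all genes. VGLL3, a TEAD cofactor, was among the higher (2.76 ± 0.15). Over time 4 were higher in Panc-1, TEAD3 most (1.60 ± 0.11), and in AsPC-1 2 were higher and 3 lower, TEAD2 (1.45 ± 0.13) and WWC1 (-1.07 ± 0.10) most. WWTR1 was among the higher in Panc-1 (0.40 ± 0.11, limma adjusted p = 0.0348) and the lower in AsPC-1 (-0.39 ± 0.11, adjusted p = 0.0253). YAP1 passed in neither line. With centred libraries 1 of the 19 was higher and 7 lower in AsPC-1, and with rescaled ones 2 and 7. Without these scalings 11.3% of all genes were higher and 15.2% lower in Panc-1, and 24.8% higher and 15.9% lower in AsPC-1. The targets themselves were not uniformly lower in AsPC-1: of the 20 YAP and TEAD targets 8 were higher there and 10 lower, with IGFBP3 at 4.48 ± 0.13 and F3 at 5.50 ± 0.24 above and NUAK2 at -3.38 ± 0.13 below. Of the 24 SRF and MRTF targets 7 were higher and 9 lower, with PDLIM7 at 2.83 ± 0.18 and CNN3 at -3.38 ± 0.22.

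Relatives of the members in the same families did not share one direction between the lines. Over all genes 39.6% were lower and 29.3% higher in AsPC-1 than in Panc-1. Among 4 tested CCN genes, WISP2 (CCN5) lay between 17.1 and 23.1 RPKM in Panc-1 but at 0.11 at most in AsPC-1 (-4.34 ± 0.08, limma adjusted p = 1.07e-09), beside the lower CTGF and CYR61, and WISP3 was higher (0.44 ± 0.11). Of 4 tropomyosin genes, TPM4 (1.32 ± 0.18) and TPM3 (0.47 ± 0.07) were higher in AsPC-1 and TPM1 lower, and TPM2 did not pass (-0.02 ± 0.14). Of 6 tested myosin II genes, MYH10 (-3.39 ± 0.08), MYL9 and MYH9 (-0.47 ± 0.10) were lower and MYH14 (2.39 ± 0.08) higher. Of 10 focal adhesion partners of vinculin, ZYX and ACTN1 were lower at 24 h in AsPC-1, and ILK (0.38 ± 0.10) and PARVA (0.44 ± 0.12) were higher in Panc-1, against 15.9% and 11.3% of all genes. With centred libraries 4 were lower in AsPC-1, and with rescaled ones 3 were higher in Panc-1.

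EGF and ANG were set side by side within 6 pairs of line and time. No member passed: limma called 0 of 9 after Benjamini-Hochberg adjustment (4 at an unadjusted p under 0.05), where 0.156% of all genes were called. That percentage is for adjusted p-values and is no background for the unadjusted count. The median over the members was 0.20 against -0.02 over all genes. VCL came nearest. It was higher with EGF in 6 of 6 pairs, by 1.15-fold to 1.58-fold, with a mean difference of 0.32 ± 0.07 (limma adjusted p = 0.137; 95% interval 0.15 to 0.48). CYR61 was higher with EGF in 5 of 6 pairs (0.43 ± 0.13, adjusted p = 0.197), TAGLN in 5 of 6 (0.27 ± 0.09, adjusted p = 0.247) and CNN2 in 5 of 6 (0.20 ± 0.08, adjusted p = 0.286). MYL9 (-0.02 ± 0.08), ANKRD1 (0.01 ± 0.08) and ACTA2 (-0.09 ± 0.07) had intervals that span 0, as did TPM1 (0.12 ± 0.05).

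The largest single gap between the ligands was that of CTGF in Panc-1 at 1 h, 65.3 RPKM with EGF and 13.6 with ANG, a ratio of 4.8. The ratio was 1.53 at 5 h and 1.49 at 24 h in Panc-1, and 0.98, 0.67 and 1.18 at the same times in AsPC-1. CYR61 in Panc-1 was higher with EGF at each time, by ratios of 1.84, 1.79 and 1.54, against 1.34, 1.19 and 0.92 in AsPC-1. CNN1 in Panc-1 read 0.92 and 0.73 RPKM after 1 h and 5 h of EGF and 0.34 at both times of ANG, between an estimated 7 and 26 reads. Over the 6 pairs CTGF differed by 0.49 ± 0.29 (limma adjusted p = 0.42), and by 0.16 without the Panc-1 EGF 1 h or ANG 1 h library. At 1 h alone the differences were 1.08 ± 0.49 for CTGF, 0.56 ± 0.24 for CYR61, 0.44 ± 0.14 for VCL and 0.41 ± 0.13 for CNN2. None passed (limma adjusted p = 1.0; 0 of 9 members called, 2 at an unadjusted p under 0.05, with 0.0745% of all genes called). The CTGF difference at 1 h was -0.02 without either of those Panc-1 libraries, which is the AsPC-1 pair alone. At 5 h and at 24 h limma called 0 members, 0 at an unadjusted p under 0.05 each, and 0.0% of all genes.

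The dependence of the ligand difference on the line was tested too. It was -1.22 ± 0.43 for CTGF (limma adjusted p = 0.625) and -0.64 ± 0.14 for CYR61 (adjusted p = 0.516), AsPC-1 minus Panc-1. Limma called 0 of 9 members (2 at an unadjusted p under 0.05) and 0.0% of all genes. The dependence on time, 1 h minus 24 h, gave 0 members as well (0 at an unadjusted p under 0.05; 0.00745% of all genes called). The early genes that SRF drives with ternary complex factors, a branch that answers to the MAP kinase pathway, did separate the ligands at 1 h: 5 of 8 tested were higher with EGF, EGR1 (3.35 ± 0.26, limma adjusted p = 0.0211), EGR3, FOS, IER2 and NR4A1. Of all genes 0.0745% were called at 1 h and 0.156% over the 6 pairs. Over the 6 pairs IER2 (0.85 ± 0.11) and MCL1 (0.91 ± 0.12) passed (limma adjusted p = 0.0382 and 0.0408). With centred libraries 1 of the list passed, and with rescaled ones 0. Among the partners of vinculin, VASP, which promotes actin filament growth, passed with EGF over ANG (0.39 ± 0.05, limma adjusted p = 0.0382), and under neither other scaling. Of the 24 SRF and MRTF targets and the 20 YAP and TEAD targets, limma called 0 in each list (14 and 6 at an unadjusted p under 0.05), with medians of 0.17 and 0.06. The share of all genes at that unadjusted threshold is not given here, so no lean of a list is read from these counts.

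**Figure D4:**
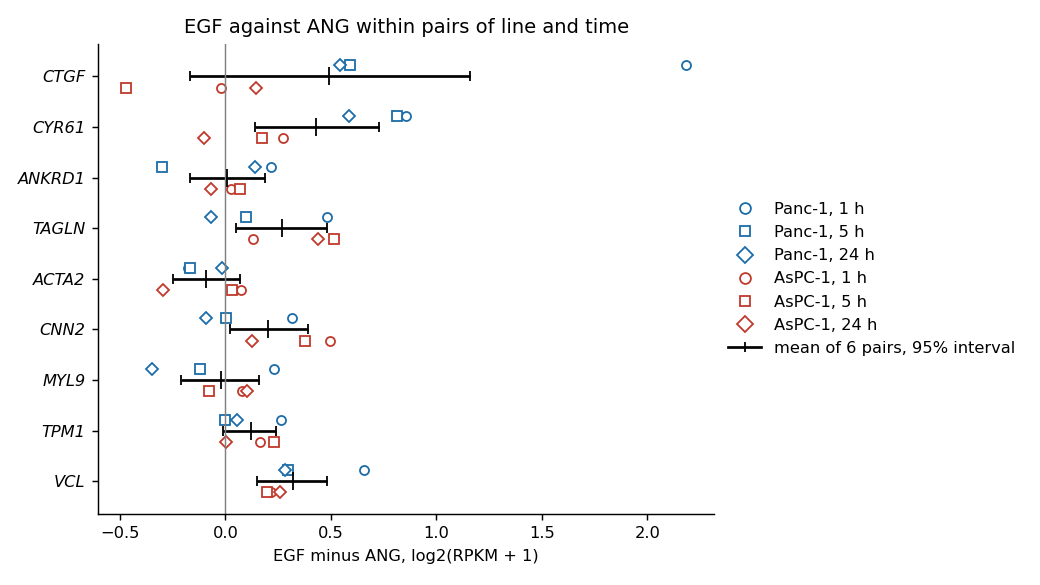
EGF minus ANG on log2(RPKM + 1) (horizontal axis) in each of the 6 pairs of line and time (open symbols) and as the mean of the pairs with its 95% interval (black), for the 9 tested genes. The CTGF pair of Panc-1 at 1 h stands far to the right of its other 5 pairs, and all 6 VCL pairs lie to the right of 0.

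Against mock, no member passed the test in any condition. The 6 comparisons share the mock library of each line, and the mock time is not known. Limma called 0 of 9 members in each, with 2, 1 and 0 at an unadjusted p under 0.05 for EGF at 1, 5 and 24 h and 1, 1 and 0 for ANG. The backgrounds were 0.663%, 4.22% and 0.0% of all genes called with EGF and 0.0819%, 0.112% and 0.0% with ANG. CTGF after 1 h of EGF was the largest difference to reach an unadjusted p under 0.05. It stood 3.67 times above mock in Panc-1 and at 4.98 against 1.84 RPKM in AsPC-1, a difference of 1.45 ± 0.49 (limma adjusted p = 0.187). TAGLN after 1 h of EGF differed by 1.47 ± 1.08, from 2.13 and 22.3 RPKM in the mock and EGF libraries of AsPC-1 and 1.11 and 1.19 RPKM in those of Panc-1. ACTA2 was below mock in 12 of 12 treated libraries, by -0.47 ± 0.14 after 1 h of EGF and -0.48 ± 0.14 after 5 h. The Panc-1 mock library, where ACTA2 was high, helped bring it into the tests, so no test is read from these differences. ACTA2 is part of the unadjusted counts at 1 h and 5 h of both ligands, and those counts are no result for it. MYL9 was below mock in 6 of 6 treated Panc-1 libraries and above it in 6 of 6 treated AsPC-1 libraries.

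Genes whose pattern was most like a member's were ranked by Pearson's r over the 14 libraries, after centring log2(RPKM + 1) within each line, as a description. For CTGF the nearest were KLF10 (0.92), FUNDC2 (0.886) and HES1 (0.878). KLF10 shared the Panc-1 peak, at 145 RPKM after 1 h of EGF and 36.6 to 54.95 RPKM in the other 6 libraries. For CYR61 they were DUSP6 (0.93), GLA (0.919) and ZBTB10 (0.914). DUSP6, a MAP kinase phosphatase, had the same opposite courses, at 46.1 RPKM after 1 h of EGF against 7.47 in mock in Panc-1, and at 72.9 against 215 RPKM in AsPC-1. For TPM1 they were HSPA1A (0.974) and DNAJA1 (0.967), both heat shock genes, and PSMF1 (0.966). HSPA1A read 25.3 RPKM in mock and 9.07 to 14.1 at 1 h and 5 h in Panc-1, and 11.3 in mock and 34.7 to 36.2 at 1 h and 5 h in AsPC-1. For VCL they were LOC284454, SLC12A4 (both 0.938) and EMP1 (0.93), for CNN2 MIDN (0.854), CSRNP1 (0.853) and PIP5K1A (0.851), and for ANKRD1 C4orf43 (0.972), ZNF140 (0.965) and MGC16121 (0.965). The libraries share their line and their time group, so such values are high for many genes.

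The genes' positions in the files (hg19, spans with introns, counted from 1) are chr6:132269317-132272518 for CTGF, chr1:86046444-86049648 for CYR61 and chr10:92671857-92681032 for ANKRD1. Those of the actin-binding and contractile genes are chr11:117070040-117075508 for TAGLN, chr10:90694831-90751147 for ACTA2, chr19:11649579-11661138 for CNN1, chr19:1026298-1039064 for CNN2, chr20:35169897-35178226 for MYL9 and chr15:63334838-63364113 for TPM1. VCL lies at chr10:75757872-75879914. CTGF, ANKRD1 and ACTA2 are on the minus strand and the other 7 on the plus strand.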

How the data were processed

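Total RNA of the 14 libraries was sequenced, and the deposited files give 1 value a gene. Per the file headers the authors computed log2 RPKM. The build was hg19 (submitters' processing notes), and what aligner, counter and annotation were used, and whether strand was, is not given in the sources used here. Values were turned back to RPKM, and the lowest log2 value, -8.966, was read as a listed 0. Depth, 11.2 to 24.0 M reads, was estimated from genes spanning at most 150 bp, whose values were whole multiples (within 0.1) of 1 read, and a 2 kb transcript then gains 0.0209 to 0.0445 RPKM a read. Transcript lengths are not in the files, so no count test was run, and estimated reads of members used the longest coding transcript of GENCODE.

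The models were fitted with limma (version 3.58.1, R 4.3.3), which took log2(RPKM + 1) and a mean-variance trend. A gene entered with 2 or more libraries at 1 RPKM or above, as 13427 did, and p-values were adjusted over all of these by Benjamini-Hochberg with a threshold of 0.05. Counts at an unadjusted p under 0.05 are given without the share over all genes, and no result is read from them. EGF and ANG were compared with the pair of line and time as block, times with the course of line and ligand as block, lines within conditions, and conditions with mock in an additive model with line. A group holds 1 library, so a p-value reflects no more than how these libraries vary, which may be technical. The tests of 24 h against 1 h in each line were added after the opposite courses were seen. The fits were tested on simulated data. Tables and plots used Python 3.11.15, numpy 2.4.6, pandas 2.3.3 and matplotlib 3.10.9.

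The members and gene lists were chosen with earlier results of these data known, so no list is independent support. The genes named were all members, up to 4 genes a list past the test in EGF against ANG, 24 h against 1 h or the lines (or the 2 largest differences), and the 3 genes most like 6 members. Other list genes were named after their values were seen. Alternatives were a pseudocount of 0.1, no filter, libraries centred on their median, rescaling to genes of at least 400 bp, fits without a block, comparisons with mock without the 24 h libraries, and leaving out each library. Results for 1 gene list are not reported here.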

Additional observations from a re-analysis of the deposited data

Results flagged for a closer look

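The time course of TAGLN, TPM1, MYL9 and CYR61 differed between the lines by a test of the difference itself (24 h against 1 h, AsPC-1 minus Panc-1, log2(RPKM + 1), limma with Benjamini-Hochberg adjustment). TAGLN differed by -3.15, TPM1 by -1.23 and MYL9 by -0.92, each past the test as lower at 24 h in AsPC-1, with changes of 0.49, 0.30 and 0.09 in Panc-1 that did not pass. The Panc-1 changes of TAGLN (0.54 and 0.58, limma adjusted p = 0.0428 and 0.0246) and TPM1 (0.35 and 0.41, adjusted p = 0.0196 and 0.00862) passed with centred and with rescaled libraries, as higher at 24 h. CYR61 differed by 2.15, with opposite changes in the lines, and ANKRD1 by 0.77 at levels of an estimated 0 to 36 reads. ANKRD1 entered the tests only through 2 early Panc-1 libraries (1.01 and 1.21 RPKM), where it was high, so its difference is a description. MYL9 reached 1 RPKM in AsPC-1 only in its 4 libraries of 1 h and 5 h, and its place among the counted members reflects them.

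Every treated AsPC-1 library held more MYL9 than its mock (0.48 to 2.39 against 0.39 RPKM), and every treated Panc-1 library held less (21.1 to 29.9 against 31.5 RPKM). The mean log2 differences from mock lay 1.15 apart between the lines. Each line has 1 mock library, and this difference was not tested.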

How the results depend on the processing

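The counts in this paragraph are over the 9 tested members, ANKRD1 and ACTA2 included. Of 339 counts of members called over 18 comparisons and their alternatives, 332 lay within 1.5 times the count given. Most of these comparisons called 0 members in nearly every fit, so this total says little of the comparisons with calls. For 24 h against 1 h in Panc-1, 5 members passed in place of 2 with centred and with rescaled libraries. Over the 7 members without ANKRD1 and ACTA2, 3 passed in place of 1. Over the 9, 1 to 3 passed when a library was left out. In 2 of these fits, without ANG 5 h or EGF 1 h, ANKRD1 reached 1 RPKM in too few libraries to be tested. Leaving out a library gave 3 to 5 members in place of 5 for AsPC-1 minus Panc-1 over time (3 without Panc-1 ANG 24 h), where centred and rescaled libraries gave 6, and 0 to 1 in place of 0 for the average of the lines (1 without Panc-1 ANG 24 h). It gave 4 to 6 in AsPC-1 and 7 to 9 for the lines. Of 593 values for 32 results on single members, 565 kept their direction and side of the threshold, 26 lost a call and 2 turned: CTGF, EGF against ANG at 1 h, which ranged from -0.02 (without Panc-1 ANG 1 h or EGF 1 h) to 2.18 (without AsPC-1 ANG 1 h or EGF 1 h). Leaving out either library of a pair leaves the pair of the other line as the only one at 1 h. These values are thus the single AsPC-1 and Panc-1 pairs. Fits with no replicate block, which ignore the pairing by line and time, ended the call of CTGF in AsPC-1 (-1.26, limma adjusted p = 0.0775), and no filter on low values did so too (adjusted p = 0.0855). A pseudocount of 0.1 moved ANKRD1 between the lines from -0.65 to -2.39 and MYL9 over time in AsPC-1 from -0.83 to -1.53. Depth limits ANKRD1 and CNN1 most, at 0 to 3 estimated reads in AsPC-1.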
